A study of Mus musculus with 4 samples.

Results

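The BCL2 family decides whether a cell's mitochondria release the factors that start apoptosis, and 10 of its genes were followed here through 4 RNA-sequencing libraries of mouse podocytes. The members are Bcl2, Bcl2l1, Mcl1, Bax, Bak1, Bbc3, Pmaip1, Bcl2l11, Bid and Bmf. They were taken by symbol, each symbol matched 1 Ensembl gene, and the 10 genes are 10 of 56393 in the table. All 10 averaged 50 counts or more and were among the 14187 genes compared. No measured value was used to choose them by the rule, although results of these data were known when the group was proposed.

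The cells were the mouse podocyte line MPC, a conditionally immortalised line of the cells whose foot processes form the kidney's filtration slits. Per the labels it was grown in 10% serum at 33 °C, with interferon-gamma at 20 U/ml, and differentiated over 7 days by moving to 37 °C and withdrawing the interferon. Groups sh-NC and sh-NC/HG carried a control hairpin, and groups sh-JAML and sh-JAML/HG carried a hairpin against Jaml, the junction adhesion molecule-like gene. In the HG groups D-glucose was raised to 40 mmol/L, for 24 h by the design text. For the other medium no glucose level is stated in the labels, nor is an osmotic control. Every group had 1 library, so no spread between cultures could be measured and no pair of groups could be tested.

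BCL2 family proteins fall into 3 classes. The survival proteins (BCL-2, BCL-XL from Bcl2l1, MCL-1) hold the effectors BAX and BAK in check, and the effectors, once free and activated, perforate the outer mitochondrial membrane so that cytochrome c escapes and caspases are switched on. The BH3-only proteins carry stress signals into this balance: PUMA (Bbc3) and NOXA (Pmaip1) are classical p53 targets, BIM (Bcl2l11) and BMF respond to growth factor loss and detachment, and BID links death receptors to mitochondria. Podocytes are long-lived cells with little capacity for renewal, which is why their loss matters in diabetic kidney disease.

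What joins the 10 genes in sequence is the BH3 domain, the short helix by which members of the family bind one another. A search of the main coding sequence of each gene (GENCODE release M21) for a leucine codon followed, after a spacer of any 3 codons, by a glycine or alanine codon and an aspartate codon found 1 match in each of 9 members and 2 in Pmaip1. The stretches of 36 bases around these matches are shown for the 9, since they carry the feature that defines the group. Capitals mark the leucine codon and the pair of glycine or alanine and aspartate codons, and each line is the coding strand, 5′ to 3′.

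Bcl2: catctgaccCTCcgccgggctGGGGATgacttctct
Bcl2l1: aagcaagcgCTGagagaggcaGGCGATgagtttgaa
Mcl1: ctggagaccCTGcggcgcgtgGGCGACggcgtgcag
Bax: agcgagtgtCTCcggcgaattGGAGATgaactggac
Bak1: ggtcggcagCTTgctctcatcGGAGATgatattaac
Bbc3: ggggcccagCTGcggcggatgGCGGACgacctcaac
Bcl2l11: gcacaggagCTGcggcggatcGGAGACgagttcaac
Bid: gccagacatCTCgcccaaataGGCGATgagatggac
Bmf: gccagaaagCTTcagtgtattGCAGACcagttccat

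On mm10 the Bax stretch lies at chr7:45465997-45466032 on the minus strand and the Bbc3 stretch at chr7:16313764-16313799 on the plus strand. Of the 9 stretches, 7 have a glycine codon and 2, those of Bbc3 and Bmf, an alanine codon before the aspartate codon. Bbc3 and Bcl2l11 shared 25 of the 36 bases, Bax and Bcl2l11 shared 21, and Bcl2 and Bcl2l1 shared 18, as did Bax and Bak1.

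The deposited counts summed to between 79330461 and 94341975 per library, and low values piled up at multiples of 4. Values of 4, 8 and 12 were 1.51 to 2.1 times as frequent as the even values beside them. On that ground 4 units were taken as 1 sequenced fragment. This is an assumption, since counts that are not multiples of 4 also occur. Members had between 620 and 8808 fragments in a library. Jaml had a count of 0 in all 4 libraries, which allows up to 0.129 to 0.151 CPM (3 fragments per library), so the effect of the hairpin on its target could not be checked. Of the 10 podocyte markers, 8 were at or above that floor in each library, with summed levels of 1540 to 2020 CPM, while Ptpro, which encodes a podocyte phosphatase, was at 0 in both HG libraries and in sh-NC. Endothelial markers summed to 0.0591 to 0.482 CPM, with Kdr at 0 in all 4 libraries, and leukocyte markers to 53.7 to 64.9 CPM. Tubule markers summed to 850 to 1330 CPM and mesangial and fibroblast markers to 815 to 1220 CPM. The sh-NC/HG library stood apart: against the average of the remaining libraries, 617 genes were 2-fold or more above and 357 as far below, where each of the others had 126 to 160 and 196 to 241. The 13 mitochondrially encoded protein genes, a sign of RNA quality, summed to 13400 CPM in it and to 19800 to 21200 CPM in the others. Whether these shifts have a part in the differences below was not tested. In bulk RNA, fewer cells of a type and less RNA per cell cannot be told apart.

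Levels between genes were compared per length, as fragments scaled to merged exon length in kilobases and to library depth (FPKM), after scaling the libraries with edgeR's TMM factors. Bax and Mcl1 were the most abundant members in all 4 libraries, and Bcl2 and Bcl2l11 the least abundant. Bax, an effector, stood at 120 FPKM (sh-NC), 72.2 FPKM (sh-NC/HG), 141 FPKM (sh-JAML) and 112 FPKM (sh-JAML/HG). Mcl1, a survival gene whose protein is short-lived, stood at 107, 110, 92.6 and 102 FPKM in the same order of libraries. It thus lay below Bax in 3 libraries and above it in sh-NC/HG. The name-giving survival gene Bcl2 stood at 5.53, 3.92, 5.55 and 4.85 FPKM. Mcl1 therefore made up 78.1% to 84.6% of the summed survival level, with the lowest share in sh-NC/HG.

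**Figure D1:**
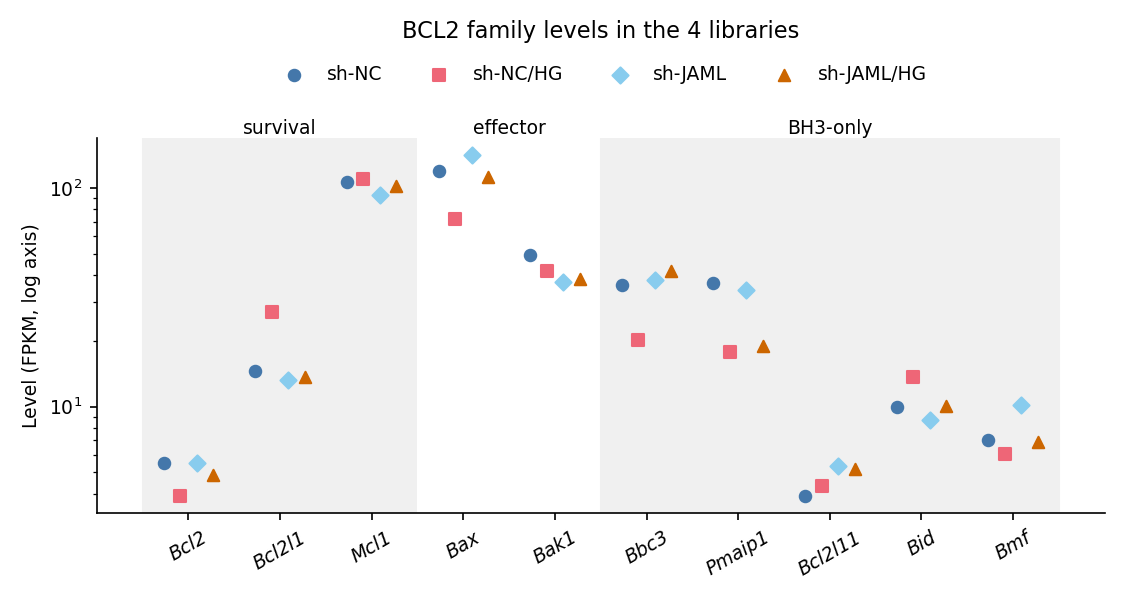
Level of each of the 10 members (y axis, FPKM on a log axis) in the 4 libraries, 1 point per library with no replicates, grouped by class. The sh-NC/HG points (squares) are the highest of the 4 for Bcl2l1 (27.0 FPKM) and Bid (13.6 FPKM) and the lowest for Bax (72.2 FPKM) and Bbc3 (20.2 FPKM), while for Pmaip1 both HG libraries are low.

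From here on, levels of a single gene are given as TMM-scaled CPM, the count relative to the size of the library, and each ratio between libraries is followed in parentheses by its exact 95% Clopper-Pearson interval. Such an interval covers counting error only and leaves out the variation between cultures.

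Among the survival genes, Bcl2l1 was the member that set sh-NC/HG apart. Its level was 67.0 CPM (sh-NC), 124 CPM (sh-NC/HG), 61.2 CPM (sh-JAML) and 63.0 CPM (sh-JAML/HG), so that 3 libraries lay close together and sh-NC/HG lay well above them. It was 1.85-fold higher with glucose under the control hairpin (1.73 to 1.97) and 1.03-fold under the Jaml hairpin (0.952 to 1.11). Between the HG libraries it was 1.96-fold lower with the Jaml hairpin (1.84 to 2.10). The gene lies on chromosome 2 from 152780668 to 152831728 (minus strand, ENSMUSG00000007659), and shares no exon base with another gene of the table.

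Bcl2, on chromosome 1 from 106538178 to 106714274 (minus strand, ENSMUSG00000057329, 6.09% of exon bases shared with the antisense gene D630008O14Rik), went the other way. Its level was 50.7 CPM (sh-NC) and 50.8 CPM (sh-JAML), and 35.9 CPM (sh-NC/HG) and 44.4 CPM (sh-JAML/HG), so both HG libraries were the lower of their pair. The ratio was 1.41-fold lower (1.29 to 1.55) and 1.14-fold lower (1.04 to 1.25). Mcl1, on chromosome 3 from 95658788 to 95663176 (plus strand, ENSMUSG00000038612), varied least of the 10. Its levels of 364 CPM (sh-NC), 378 CPM (sh-NC/HG), 317 CPM (sh-JAML) and 349 CPM (sh-JAML/HG) spanned 1.19-fold. With the Jaml hairpin Mcl1 was 1.15-fold lower at basal glucose (1.11 to 1.19) and 1.08-fold lower in high glucose (1.05 to 1.12).

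Of the effectors, Bax was lower with glucose under both hairpins. It stood at 189 CPM (sh-NC) and 114 CPM (sh-NC/HG), and at 222 CPM (sh-JAML) and 176 CPM (sh-JAML/HG). The difference was 1.66-fold lower (1.58 to 1.75) with the control hairpin and 1.26-fold lower (1.21 to 1.32) with the Jaml hairpin. Both sh-JAML libraries lay above the sh-NC library of the same glucose condition, 1.17-fold at basal glucose (1.12 to 1.23) and 1.55-fold in high glucose (1.47 to 1.62). Bax lies on chromosome 7 from 45461697 to 45466898 (minus strand, ENSMUSG00000003873), with 12.2% of its exon bases shared with 1 other gene, Gm45808.

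Bak1, the other effector, showed a different order. It was highest in sh-NC at 119 CPM, followed by 100 CPM (sh-NC/HG), 92.6 CPM (sh-JAML/HG) and 89.1 CPM (sh-JAML). It was thus 1.34-fold lower with the Jaml hairpin at basal glucose (1.26 to 1.42), where Bax was higher. The gene is on chromosome 17 from 27019810 to 27029009 (minus strand, ENSMUSG00000057789), and 25.5% of its exon bases overlap Ggnbp1 on the opposite strand. Reads there cannot be told apart without strand information.

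The 5 BH3-only genes did not share 1 pattern. Pmaip1, the NOXA gene, was low in both HG libraries. It stood at 100.0 CPM (sh-NC) and 93.3 CPM (sh-JAML), and at 48.6 CPM (sh-NC/HG) and 51.9 CPM (sh-JAML/HG). The hairpins differed little at either glucose level, with Pmaip1 1.07-fold lower at basal glucose (1.01 to 1.15) and 1.07-fold higher in high glucose (0.981 to 1.16) in the sh-JAML library. The gene is on chromosome 18 from 66458533 to 66465565 (plus strand, ENSMUSG00000024521) and shares no exon bases.

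Bbc3, the PUMA gene, was low in sh-NC/HG alone. Its level was 76.1 CPM (sh-NC), 42.9 CPM (sh-NC/HG), 80.5 CPM (sh-JAML) and 88.1 CPM (sh-JAML/HG). The sh-JAML/HG level was 1.09-fold above sh-JAML (1.02 to 1.17) and 2.05-fold above sh-NC/HG (1.90 to 2.22). The log2 glucose ratio of Bbc3 was -0.83 with the control hairpin and 0.13 with the Jaml hairpin, a difference of 0.96 (95% counting interval 0.81 to 1.11). That was the widest such difference of the 10 members, followed by -0.84 (-0.99 to -0.70) for Bcl2l1. The difference has no replicate check, since a test of it needs more than 1 library per group. Bbc3 lies on chromosome 7 from 16308393 to 16318205 (plus strand, ENSMUSG00000002083), with no shared exon bases.

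Bmf and Bcl2l11 were higher with the Jaml hairpin, Bmf mainly at basal glucose. Bmf, which can be released from the cytoskeleton when cells detach, stood at 53.8 CPM (sh-JAML) and between 32.0 and 37.0 CPM in the other 3 libraries. It was 1.45-fold higher in sh-JAML than in sh-NC (1.32 to 1.6) and 1.48-fold lower in sh-JAML/HG than in sh-JAML (1.35 to 1.63). Between the HG libraries Bmf was 1.13-fold higher with the Jaml hairpin (1.03 to 1.26). Bcl2l11 stood at 31.3 CPM (sh-NC) and 34.7 CPM (sh-NC/HG), and at 42.8 CPM (sh-JAML) and 41.4 CPM (sh-JAML/HG). It was 1.37-fold higher with the Jaml hairpin at basal glucose (1.23 to 1.52) and 1.19-fold higher in high glucose (1.08 to 1.31). Its glucose ratios were 1.11-fold higher (0.999 to 1.23) and 1.03-fold lower (0.939 to 1.14), both within counting error of no difference. Bmf (chromosome 2, 118528757 to 118549687, minus strand, ENSMUSG00000040093) and Bcl2l11 (chromosome 2, 128126038 to 128162547, plus strand, ENSMUSG00000027381) share no exon bases with other genes.

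Bid, which caspase-8 cleaves to link death receptors to mitochondria, was highest in sh-NC/HG. It stood at 35.3 CPM (sh-NC), 48.3 CPM (sh-NC/HG), 30.9 CPM (sh-JAML) and 35.8 CPM (sh-JAML/HG). With glucose it was 1.37-fold higher under the control hairpin (1.24 to 1.51) and 1.16-fold higher under the Jaml hairpin (1.04 to 1.29). Bid lies on chromosome 6 from 120891930 to 120916853 (minus strand, ENSMUSG00000004446), and 17.7% of its exon bases overlap the family gene Bcl2l13 on the opposite strand.

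**Figure D2:**
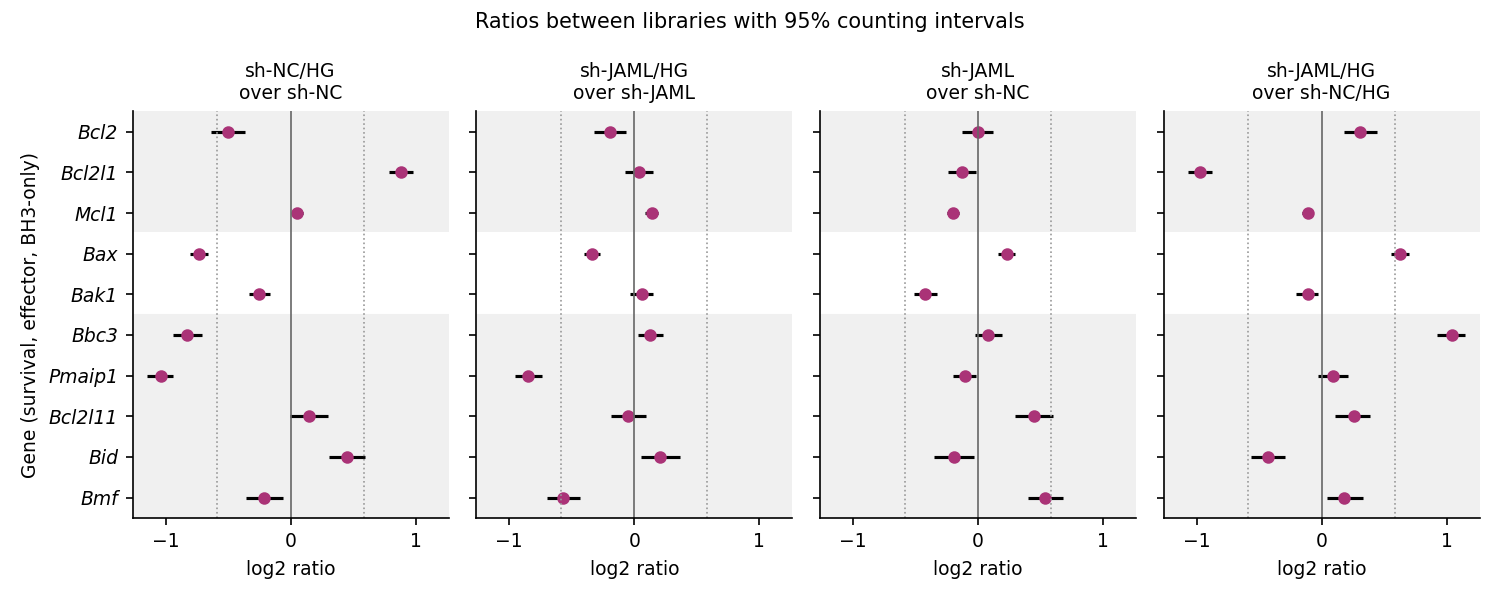
Log2 ratio (x axis) of each member (y axis, shaded by class) in the 4 pairs of libraries. Points are the ratios and bars their 95% counting intervals, with dotted lines at 1.5-fold. In the first panel Bcl2l1 lies to the right and Bax, Bbc3 and Pmaip1 to the left of the dotted lines, while in the second only Pmaip1 lies outside them.

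Counted over the group, the sh-NC pair had 1 member lower with glucose by 2-fold or more (Pmaip1, where 3.27% of all genes tested were), 0 higher (4.65%) and so 1 in either direction (7.92%). At the 1.5-fold line, 3 were lower (Bax, Bbc3 and Pmaip1; 8.96% of all genes) and 1 was higher (Bcl2l1; 10.0%), together 4 of 10 against 19.0%. The median log2 ratio of the 10 was -0.23, against 0.00 over all genes tested. With so few members each gene is 10% of the group.

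The sh-JAML pair had 0 members apart by 2-fold in either direction (2.88% of all genes; 1.31% higher and 1.56% lower). At 1.5-fold 1 was lower with glucose (Pmaip1; 4.18%) and 0 higher (3.57%), 1 of 10 in all against 7.75%. For the hairpins without added glucose, 0 members were 2-fold apart (2.71%; 1.31% higher and 1.40% lower) and 0 were 1.5-fold apart (8.02%; 4.12% higher and 3.90% lower). With high glucose 1 member was 2-fold higher under the Jaml hairpin (Bbc3; 2.81%) and 0 were 2-fold lower (4.78%), 1 of 10 in all against 7.59%. There 2 were 1.5-fold higher (Bax and Bbc3; 8.35%) and 1 was 1.5-fold lower (Bcl2l1; 9.86%), 3 of 10 in all against 18.2%. Pairs that share a library are not independent: sh-NC/HG enters both pairs with the most members apart. The glucose ratios of the 2 hairpins lay 1.5-fold or more from each other for 2 members (Bbc3 and Bcl2l1), against 22.4% of all genes, so this share was no higher than the background.

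Over the 4 libraries, 6 of 10 members had a range of at least 1.5-fold (Bcl2l1, Bax, Bbc3, Pmaip1, Bid and Bmf; 30.6% of all genes). Without the sh-NC/HG library the count was 1, Pmaip1 at 1.93-fold, against 14.5% of all genes. Bcl2l1 then spanned 1.09-fold, Bbc3 1.16-fold and Bax 1.26-fold. For 3 members sh-NC/HG was the highest of the 4 libraries (Bcl2l1, Mcl1 and Bid; 36.0% of all genes) and for 5 the lowest (Bcl2, Bax, Bbc3, Pmaip1 and Bmf; 36.4%). Those are 8 of 10, where 72.3% of all genes had that library at an end.

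The additive model over both hairpins asks which glucose differences the 2 hairpins share, with the disagreement between them as its error. The SE given for this model is the size of edgeR's log2 difference divided by the square root of its F statistic. Glucose ratios had the same sign under both hairpins for 7 members, and opposite signs for 3 (Bak1, Bbc3 and Bcl2l11; 48.6% of all genes had opposite signs). Pmaip1 had the largest shared difference of the 10: it was lower in 2 of 2 pairs, by a log2 difference of -0.94 (SE 0.11), but edgeR's quasi-likelihood test with Benjamini-Hochberg adjustment did not call it (adjusted p = 0.75). DESeq2 on the same model called it with an adjusted p of 0.000215, and the adjusted p over the 5 alternatives ran from 0.000215 to 0.859. Bax came next among members lower in both pairs, at -0.53 (SE 0.15; edgeR adjusted p = 0.927). For glucose, edgeR called 0 members (0.00705% of all genes) at 1 residual degree of freedom, 2 had an unadjusted p under 0.05 (Bax and Pmaip1; 2.80% of all genes), DESeq2 called 1 (0.374%) and limma-voom 0.

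For the hairpin, the widest estimates of the model were those of Bbc3 and Bcl2l1, and both average unlike pairs. Bbc3 had a log2 difference of 0.56 (SE 0.27). With the Jaml hairpin it was 1.06-fold higher at basal glucose (0.986 to 1.14), within counting error of no difference, and 2.05-fold higher in high glucose (1.90 to 2.22). Bcl2l1 had -0.55 (SE 0.24), being 1.09-fold lower at basal glucose (1.01 to 1.18) and 1.96-fold lower in high glucose (1.84 to 2.10). Bax had 0.43 (SE 0.15), higher with the Jaml hairpin in 2 of 2 pairs. EdgeR called none of the 3 (adjusted p = 0.933 for each). Bax was the 1 member with an unadjusted p under 0.05 in edgeR (2.82% of all genes). DESeq2 had 3 such members (Bax, Bbc3 and Bcl2l1), where 594 of all 14187 genes had one. EdgeR, DESeq2 and limma-voom each called 0 of 10 members for the hairpin, where DESeq2 called 0.338% of all genes. That a gene missed the threshold here does not show that its levels were alike.

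**Figure D3:**
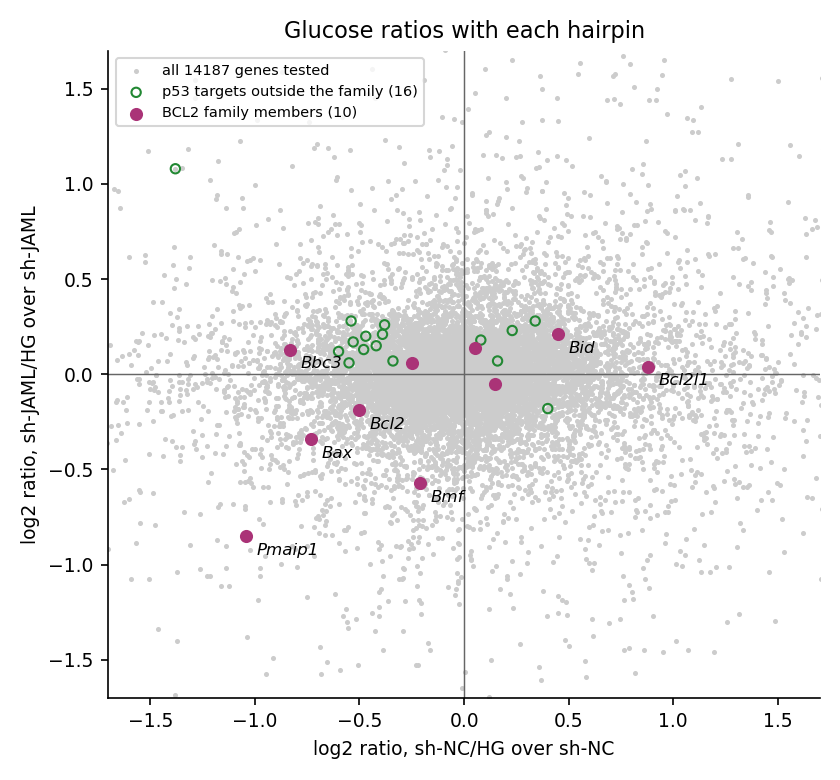
Log2 glucose ratio with the control hairpin (x axis) and with the Jaml hairpin (y axis) for the 10 members (filled), 16 p53 target genes outside the family (open circles) and all 14187 genes tested (grey; genes beyond the axes are not drawn). Pmaip1 lies low on both axes (-1.04 and -0.85), while Bbc3 (-0.83 and 0.13) lies left of 0 and just above it, as most open circles do.

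Set against each other per length, the 3 classes had another balance in sh-NC/HG than in the other libraries. Survival genes made up 32.5% of the summed FPKM of the 10 members without and 44.6% with added glucose under the control hairpin, and 28.9% and 34.1% under the Jaml hairpin. In the same order BH3-only genes made up 24.0%, 19.6%, 25.0% and 23.4%, and effectors 43.5%, 35.9%, 46.1% and 42.5%. The ratio of BH3-only to survival level was 0.737 (sh-NC) and 0.439 (sh-NC/HG) under the control hairpin, and 0.864 (sh-JAML) and 0.685 (sh-JAML/HG) under the Jaml hairpin. Under both hairpins the HG library thus had the lower ratio, at 0.595 and 0.793 times that of its basal library. These shares describe RNA and not protein, and depend on the exon length taken for each gene.

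The ratio of Bax to Bcl2, often quoted as an index of death priming, moved less than its parts. Per length it was 21.7 (20.2 to 23.2) for sh-NC, 18.4 (17.0 to 19.9) for sh-NC/HG, 25.4 (23.7 to 27.2) for sh-JAML and 23.0 (21.4 to 24.7) for sh-JAML/HG. Both genes were lower in the HG libraries, so the HG ratio was 0.85 and 0.905 times the basal one. The ratio of Bax to Bcl2l1 spread more widely: 8.21 (7.71 to 8.75), 2.68 (2.54 to 2.82), 10.5 (9.90 to 11.2) and 8.12 (7.63 to 8.66) in the same order. NOXA binds MCL-1 in preference to the other survival proteins, and Pmaip1 to Mcl1 stood at 0.345 (0.328 to 0.362) for sh-NC and 0.369 (0.350 to 0.388) for sh-JAML. With glucose this ratio was 0.161 (0.151 to 0.172) for sh-NC/HG and 0.186 (0.175 to 0.199) for sh-JAML/HG, low under both hairpins.

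**Figure D4:**
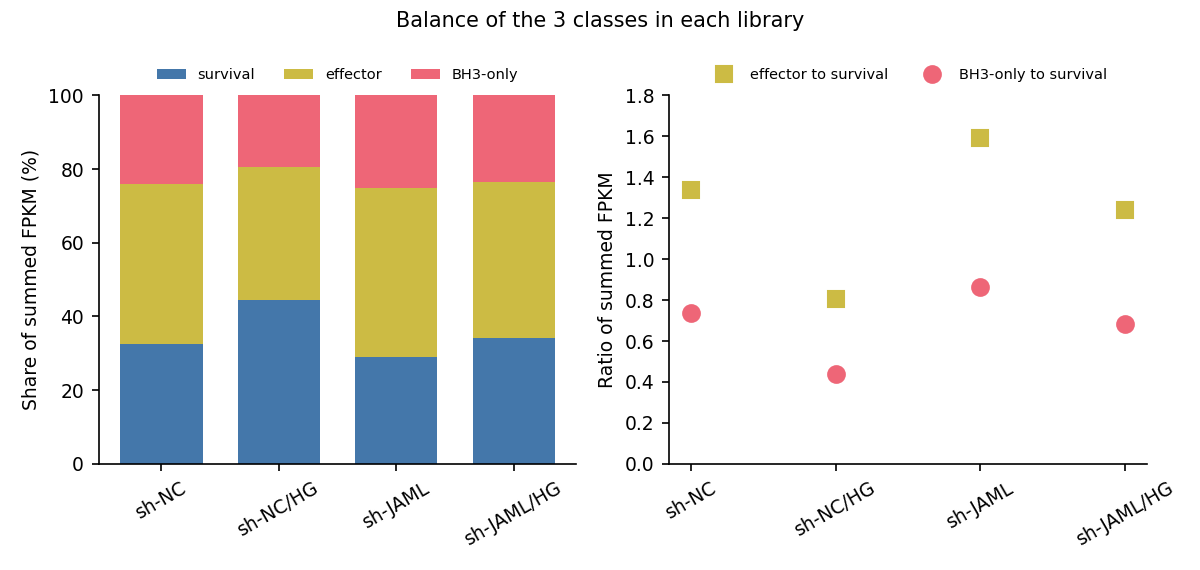
Left, share of the 10 members' summed FPKM (y axis, %) in each class, 1 bar per library. Right, ratio of summed effector FPKM (squares) and BH3-only FPKM (circles) to summed survival FPKM. The sh-NC/HG library has the largest survival share (44.6%) and the lowest of both ratios (0.805 and 0.439).

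Around the 10 members, part of the family was at or near 0. Of 15 further BCL2 family genes, 7 passed the count minimum. Bcl2a1a, Bcl2a1d and Bcl2l10 had a count of 0 in all 4 libraries, and Hrk and Bik, BH3-only genes, at most 8 units, which is under the floor of 12. Bok, a relative of Bax and Bak1, stood at 122 CPM (sh-NC), 46.0 CPM (sh-NC/HG), 81.3 CPM (sh-JAML) and 79.6 CPM (sh-JAML/HG). It was 2.65-fold lower (2.47 to 2.85) with glucose under the control hairpin and 1.02-fold lower (0.954 to 1.09) under the Jaml hairpin. Bcl2l2, the BCL-W survival gene, was 2.56-fold lower (2.32 to 2.83) and 1.34-fold lower (1.20 to 1.49), from 64.1 CPM (sh-NC) and 38.0 CPM (sh-JAML), and shares 13.3% of its exon bases with another gene. Of the 7 measured genes, these were the 2 past the 2-fold line below sh-NC (3.27% of all genes), and 0 were past it above. The median of the 7 was 0.18 with the control hairpin and -0.06 with the Jaml hairpin.

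Downstream of the mitochondria, 19 caspase, apoptosome and related genes were measured, with log2 glucose ratios from -0.67 to 2.21 under the control hairpin and from -0.50 to 0.87 under the Jaml hairpin. Their medians were 0.08 and 0.04. By 2-fold 1 of 19 was higher in sh-NC/HG (4.65% of all genes), which is near the background, and 0 were lower (3.27%). Under the Jaml hairpin 0 were apart (2.88%). The gene apart was Xiap, whose protein inhibits caspases, at 26.0 CPM (sh-NC), 120 CPM (sh-NC/HG), 40.2 CPM (sh-JAML) and 29.6 CPM (sh-JAML/HG). It was 4.64-fold higher (4.22 to 5.11) with glucose under the control hairpin and 1.36-fold lower (1.22 to 1.51) under the Jaml hairpin. Of the 9 measured death receptor genes, 0 were 2-fold apart in either glucose pair (7.92% and 2.88% of all genes). The 5 genes of MCL1 turnover, ubiquitin ligases and deubiquitinases among them, ranged from -0.17 to -0.03 with the control hairpin and from -0.22 to 0.29 with the Jaml hairpin.

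The p53 targets outside the family were mostly below 0 with glucose under the control hairpin and above 0 under the Jaml hairpin. Of 16 measured genes, 11 had a log2 ratio below 0 in sh-NC/HG (49.8% of all genes tested) and 15 one above 0 in sh-JAML/HG (49.9%), with medians of -0.40 and 0.17 against 0.00 over all genes. At least 2-fold apart were 1 gene in sh-NC/HG (lower; 3.27% of all genes) and 1 in sh-JAML/HG (higher; 1.31%), both times Aen, a nuclease gene induced by p53. Aen stood at 66.9 CPM (sh-NC), 25.7 CPM (sh-NC/HG), 29.9 CPM (sh-JAML) and 63.1 CPM (sh-JAML/HG), so it was 2.60-fold lower (2.36 to 2.87) and 2.11-fold higher (1.92 to 2.33). The cell cycle inhibitor gene Cdkn1a stood at 711, 487, 657 and 799 CPM, and Mdm2, the p53 ligase gene, at 179, 134, 167 and 185 CPM. Bbc3 had its lowest level in the same library as Cdkn1a and Mdm2, the lowest library for 36.4% of all genes, whereas Pmaip1 was low in both HG libraries. Of the 16 targets 5 went the other way, Sesn1 and Perp among them, with a log2 ratio above 0 in sh-NC/HG. Between the HG libraries 12 of the 16 were higher with the Jaml hairpin (50.3% of all genes), with a median of 0.49. Without added glucose 14 were lower (49.6%), with a median of -0.11. The p53 gene itself, Trp53, spanned 185 to 203 CPM.

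Of 8 measured regulators of BH3-only genes, Trp53 among them, 1 passed the 2-fold line, in the sh-NC pair (lower; 3.27% of all genes). This was Myc, a growth regulator gene, 2.31-fold lower (2.0 to 2.68) with the control hairpin and 1.16-fold higher (0.999 to 1.35) with the Jaml hairpin. Ddit3, which encodes the stress factor CHOP, had log2 ratios of -0.54 and 0.17 (10.9% of its exon bases shared), and Foxo3, a regulator of Bcl2l11, 0.15 and -0.01. In the additive model edgeR's quasi-likelihood test, DESeq2 and limma-voom called 0 genes of the 6 lists, in either direction, for glucose or hairpin. At an unadjusted p under 0.05 edgeR had 1 gene for glucose, among the 7 other family genes (2.80% of all genes). For the hairpin it had 1, among the 16 p53 targets (2.82%). DESeq2 had 3 of the 7 other family genes and 1 of the 19 downstream genes for glucose (549 of all 14187 genes). For the hairpin DESeq2 had 1 of the 16 p53 targets (594 of all genes).

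**Figure D5:**
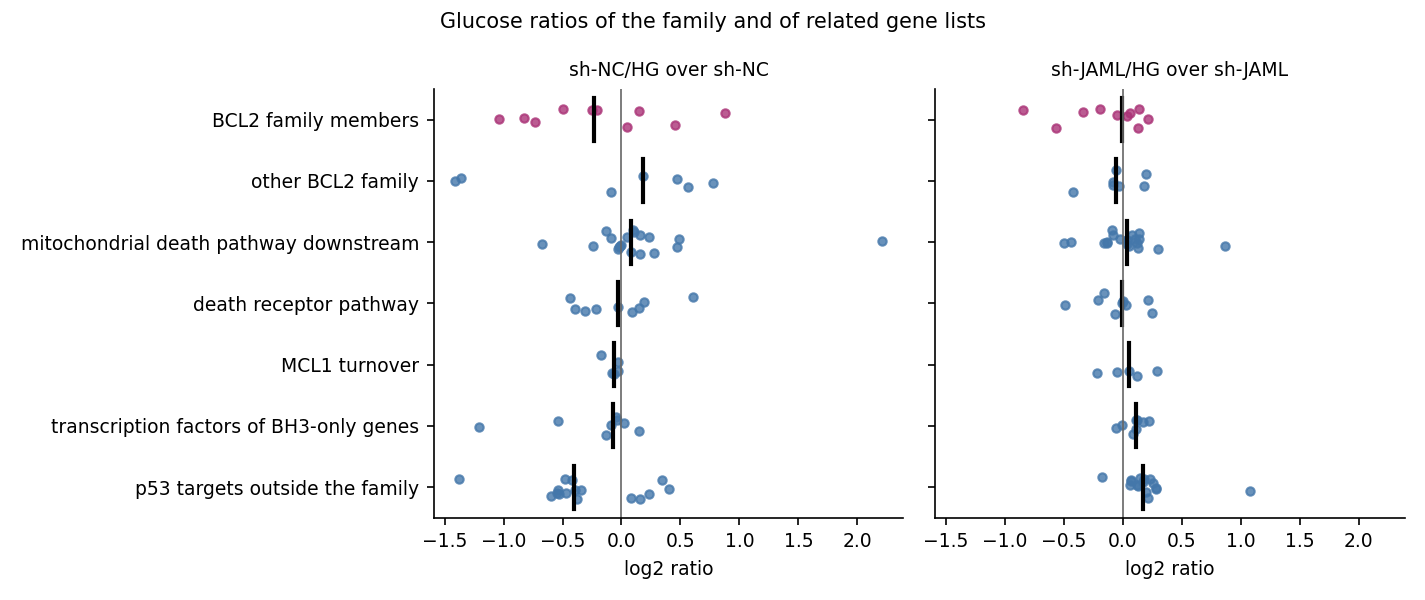
Log2 glucose ratio (x axis) of each measured gene in the 10 members and 6 related lists (y axis), with the control hairpin (left) and the Jaml hairpin (right). Black bars are list medians, and points are shifted at random in height only. The p53 targets outside the family have medians of -0.40 and 0.17, and the single point at 2.21 is Xiap.

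Promoter sequence was read for the members with an entry in the RefSeq table (GRCm38.p6), 9 of 10 with 16 windows of 300 bases, each from 250 bases before to 50 after a gene's start. The p53 half-site consensus, searched on both strands, had a match in 2 windows, 1 each of Bax and Bmf, against 8.36% of all 32851 windows. The NF-kB consensus had one in 3 windows, of Bbc3, Bcl2l1 and Bmf (4.51% of all windows), the FOXO motif TGTTTAC in 2 (Bbc3 and Bcl2l11; 3.65%), and the E-box CACGTG in 2 (Bax and Bbc3; 7.15%). TTCNNNGAA and TGATGNAA had matches in 0 member windows (8.30% and 3.97% of all). Bax and Bbc3 are shown because both were low in sh-NC/HG while differing under the Jaml hairpin. Capitals mark the p53 half-site match, 201 bases before the Bax start, and overlapping NF-kB matches in Bbc3. The latter begin 137 bases before the first RefSeq start of Bbc3. In GENCODE release M21 the Bbc3 gene begins further upstream, at 16308393, so its stretch lies within the gene as annotated there. A match describes letters and is no evidence of binding. Each line is on the gene's strand, Bax at chr7:45467045-45467144 (minus) and Bbc3 at chr7:16309401-16309500 (plus), and neither holds an annotated exon base.

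Bax: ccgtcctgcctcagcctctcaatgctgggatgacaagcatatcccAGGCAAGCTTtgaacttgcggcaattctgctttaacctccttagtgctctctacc
Bbc3: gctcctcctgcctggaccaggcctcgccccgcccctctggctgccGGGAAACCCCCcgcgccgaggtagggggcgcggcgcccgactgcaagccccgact

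Genes whose levels ran most like those of the 2 members with the widest range were sought among 11966 other genes averaging 200 counts or more, by the root mean square difference of centred log2 levels over the 4 libraries. For Pmaip1 they were Slc5a3, the myo-inositol transporter gene (0.035), Mxi1, a MYC antagonist gene (0.065), and Tnfrsf23, a decoy receptor gene for TRAIL (0.073). Slc5a3 stood at 44.8 CPM (sh-NC) and 42.0 CPM (sh-JAML), and at 22.0 and 22.1 CPM in their HG libraries. For Bbc3 they were the antisense transcript gene Gm20632 (0.007), the mitochondrially encoded cytochrome b gene mt-Cytb (0.013) and Txndc16 (0.024). The level of mt-Cytb was 2490 CPM (sh-NC), 1420 CPM (sh-NC/HG), 2660 CPM (sh-JAML) and 2850 CPM (sh-JAML/HG). Over 4 libraries such likeness is a description only.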

How the data were processed

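RNA was measured in 4 libraries, 1 per group, made by the TruSeq guide per the labels' protocols. The submitters' processing notes name CASAVA 1.8, TopHat2 2.0.6 and the build mm10. The counter and the annotation used are not stated there or in the labels. The table the authors deposited holds an estimated count per Ensembl gene, unscaled and in whole numbers. Its columns are named by condition. Those for control cells, without and with high glucose, give no hairpin and were taken by condition as the sh-NC libraries. The series text speaks of 4 treated and 4 untreated samples, and 4 libraries were analysed.

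Symbols, positions and exon lengths came from GENCODE release M21 (GRCm38), which matched 55394 of 56393 genes. Counts were scaled with TMM factors (R 4.3.3, edgeR 4.0.16). Log2 ratios used a prior count of 1, and genes averaging 50 counts or more entered. Intervals use counts divided by 4. The additive model (hairpin and glucose, 1 residual degree of freedom) was fitted over all 14187 genes with edgeR's quasi-likelihood functions and Benjamini-Hochberg adjustment at 0.05, with limma 3.58.1 (voom) and DESeq2 1.42.0 as alternatives. The edgeR fit was run on simulated data to check that it returns the sign and size of large changes. The number of genes called was not a criterion of that check. Other values used Python 3.11.15, numpy 2.4.6, pandas 2.3.3, scipy 1.17.1 and matplotlib 3.10.9.

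The members and the 6 further lists were chosen with earlier results of these data known. Named were the 10 members, up to 3 genes of each list at least 2-fold apart in a pair, and the 3 genes nearest in pattern to each of the 2 widest members. Cdkn1a, Mdm2, Trp53, Ddit3, Foxo3 and silent family genes were named after their values were seen. Counting error is set by 620 to 8808 fragments per member and library, while variation between cultures was not measured. Other scalings, prior counts, count minimums and gene lengths were tried.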

Additional observations from a re-analysis of the deposited data

Results flagged for a closer look

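For 3 genes the glucose ratio lay on opposite sides of 1 in the control and Jaml hairpin pairs, with both counting intervals leaving out 1. Each difference rests on 1 library per group and was not tested. Bbc3 had log2 ratios of -0.83 and 0.13, so the ratio with the Jaml hairpin exceeded that with the control hairpin by 0.96. Aen had log2 ratios of -1.38 and 1.08, a difference of 2.46. Xiap had 2.21 and -0.44, a difference of -2.66. Aen and Xiap were taken for this check because they stood at least 2-fold apart in a pair, so their wide differences partly follow from that choice.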

How the results depend on the processing

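All 320 recomputed member ratios, over 8 alternatives of scaling, prior count and count minimum, stayed within the counting interval of the reported ratio, with a largest shift of 0.04 on the log2 scale, and none of the counts of members past 1.5-fold or 2-fold moved by over 1.5 times. The number of members with a range of at least 1.5-fold was 1 without the sh-NC/HG library, an alternative chosen after seeing the data, against 6 with it. DESeq2 called 1 member for glucose (Pmaip1), where edgeR called 0; the cause was not tested. With the longest transcript as gene length, the effector to survival ratio of sh-NC/HG was 0.56 times that of sh-NC (0.602 with merged exons), and that of sh-JAML/HG 1.68 times that of sh-NC/HG (1.54). No paired analysis was possible because each group has 1 library and the labels give no replicate numbers, and for the same reason no replicate could be left out.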
